A study of Mus musculus with 13 samples.

Results

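Oocytes make large amounts of mRNA while they grow and keep much of it silent until meiosis resumes. The 10 genes described here encode proteins that store maternal mRNAs or hold back their translation: Zar1, Zar1l, Ybx2, Ddx6, Lsm14a, Lsm14b, Eif4enif1, Eif4e1b, Patl2 and Cpeb1. They were chosen by name, with earlier results of these data known. All 10 were found among the 18939 genes of the count tables and the 49686 genes of the FPKM table. Together they took between 0.307% and 0.444% of the counts of a library.

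In the particles that store maternal mRNA, the DEAD-box helicase DDX6 binds LSM14 proteins, the eIF4E transporter (encoded by Eif4enif1) and Pat1 proteins such as PATL2. The transporter in turn holds a cap-binding protein, in oocytes also the germ-cell form EIF4E1B, so that the bound mRNA is not translated. CPEB1 binds the cytoplasmic polyadenylation element (CPE) near the 3′ end of an mRNA, where it keeps the tail short in the arrested oocyte and directs its lengthening once maturation begins. YBX2, known as MSY2, coats mRNA in germ cells. The zygote arrest proteins ZAR1 and ZAR1L bind maternal mRNAs, and ZAR1 is needed for the first divisions of the embryo.

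The libraries came from 13 single mouse oocytes. The GV oocytes were 3 SN GV and 3 NSN GV oocytes, still arrested in prophase with a germinal vesicle, in which condensed chromatin surrounds (SN) or does not surround (NSN) the nucleolus. The MII oocytes were 4 SN-MII and 3 NSN-MII oocytes, matured in culture from GV oocytes of each type to metaphase II. All came from C57BL/6 females of 3 to 4 weeks, primed for 48 h with PMSG, and no genotype other than the strain is given. Type was read from the pattern of a fibrillarin–GFP fusion made from injected mRNA, with H2B-mCherry mRNA injected beside it, after 6 h in Cilostamide, which keeps oocytes at the GV stage. So the classified oocytes carried both injected mRNAs, and the type of an MII oocyte is the type it had before maturation. No source used here ties an oocyte to a female, and p-values measure the spread between these oocytes.

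Total counts were between 7140416 and 8846287 per library, and between 11579 and 13333 genes had at least 1 count. In the third NSN-MII library the fewest genes were detected and the top 10 genes held 12.1% of all counts, more than in any other library. All 10 oocyte markers checked were expressed in each group, with a summed FPKM between 9057 and 15761 per library. Single markers moved in both directions between stages, which the sum does not show. Zp3 was at 2479 to 2870 FPKM in SN GV and 151 to 240 FPKM in SN-MII oocytes. Gdf9 was at 2300 to 3507 FPKM in SN GV and 4995 to 6154 FPKM in SN-MII oocytes. The 12 markers of cumulus and granulosa cells summed to between 18.7 and 32.0 FPKM in GV oocytes and between 35.4 and 59.1 FPKM in MII oocytes. Most of that was Cyp19a1 (16.8 to 53.1 FPKM), while Foxl2, Ptx3 and Pgr were listed at 0 in every library. The part of somatic cells in the differences between stages was not tested.

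Since the libraries were primed on poly(A) tails, the 3′ ends of the 6 genes that were called between stages in at least 1 type are shown, from the principal GENCODE transcript on GRCm38. Each is 30 bases in the direction of transcription. Capitals mark the polyadenylation hexamer (AATAAA or ATTAAA, searched in the last 40 bases) and a CPE (TTTTAT or TTTTAAT, searched in the last 100 bases, sense strand only).
Zar1, chr5:72577129-72577158, minus strand: gtgtacttggatataaagcctgtgAATAAA
Zar1l, chr5:150507068-150507097, minus strand: cctgtagtgtcttcttcagcttaaAATAAA
Ybx2, chr11:69941532-69941561, plus strand: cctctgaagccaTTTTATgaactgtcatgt
Patl2, chr2:122120127-122120156, minus strand: aataaggggaaaggccttgtatttAATAAA
Lsm14a, chr7:34344664-34344693, minus strand: ttgtgtTTTTAATaaaggccatggAATAAA
Lsm14b, chr2:180035417-180035446, plus strand: ccactgttggggaaatgcaaactaAATAAA
A hexamer lay in this window in 9 of the 10 genes, beside 68.83% of 21786 genes with a principal coding transcript. The gene without one was Ybx2. A CPE was found in 2 of the 10 genes, Lsm14a and Ybx2, beside 16.31% of those genes. In Lsm14a it ended 11 bases before the hexamer and overlapped another AATAAA, and in Ybx2 it ended 56 bases before the transcript end. These are matches of letters at annotated ends, and which ends the oocytes used was not measured.

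Levels of different genes were compared as FPKM, which corrects for length. In SN GV oocytes Zar1 was the most abundant at 660.3 ± 115 FPKM (SD, n = 3), with 98.8% of the genes expressed at or below it (taken as a mean of 1 FPKM or more over the libraries). Cpeb1 followed at 416 ± 49.7 (SD, n = 3), and Zar1l at 282 ± 35.0 (SD, n = 3). The libraries of these 3 genes did not overlap. Eif4enif1 (228 FPKM) overlapped both Zar1l above it and Eif4e1b (211 FPKM) below it, while Zar1l and Eif4e1b did not overlap each other. A lower level was shared by Lsm14a (43.8 FPKM), Patl2 (33.1) and Ybx2 (30.3), each overlapping the next, followed by Lsm14b (15.7). Ddx6, which encodes the helicase at the centre of the complex, was the lowest by far at 1.27 ± 0.449 FPKM (SD, n = 3).

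Patl2 and Lsm14a changed places in NSN GV oocytes (55.0 and 39.0 FPKM), with overlapping libraries, and the order was otherwise that of SN GV oocytes. At MII the order was different. In SN-MII oocytes Cpeb1 (488 FPKM) and Zar1 (453 FPKM) led with overlapping libraries, Lsm14a had moved to 113 FPKM, and Zar1l, Patl2 and Ybx2 were at 9.93, 6.83 and 5.39 FPKM, each overlapping the next. NSN-MII oocytes had Zar1 at 435 and Cpeb1 at 380.4 FPKM, also overlapping, and Ddx6 still lowest at 3.24 FPKM, with a range of 1.02 to 5.39 that overlapped that of Ybx2. Of the expressed genes, 96.5% were at or below Zar1l in SN GV oocytes and 57.2% in SN-MII oocytes, while for Lsm14a this share was 76.6% in SN GV and 92.0% in SN-MII oocytes.

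**Figure D1:**
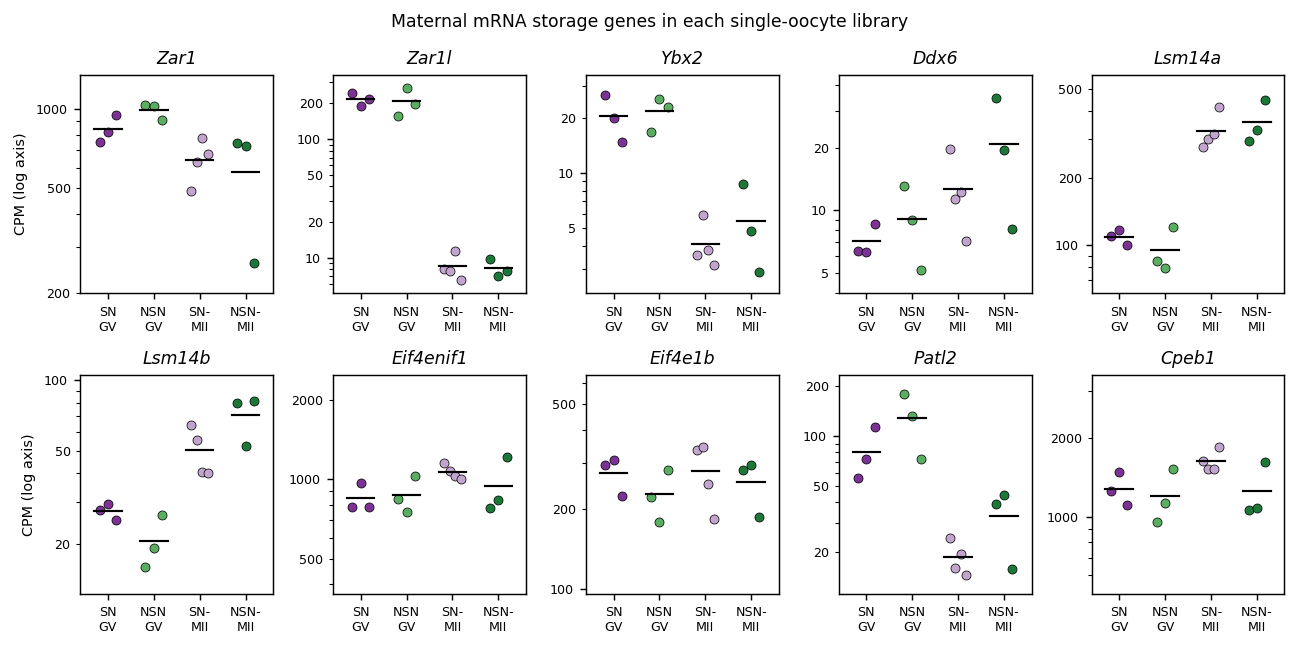
CPM of each gene (log axis, a range of its own per panel) in the 13 single-oocyte libraries, grouped as SN GV (n = 3), NSN GV (n = 3), SN-MII (n = 4) and NSN-MII (n = 3). Points are libraries and bars are group means. Zar1l, Ybx2 and Patl2 lie lower in all MII libraries of each type than in its GV libraries, Lsm14a and Lsm14b lie higher, and within a stage the NSN and SN points overlap for every gene.

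The first comparison asked which storage genes differ between GV and MII within each type. Zar1l, Ybx2 and Patl2 fell and Lsm14a and Lsm14b rose in both types, and Zar1 fell in NSN oocytes. In SN oocytes 5 of the 10 genes were called, 2 higher and 3 lower, beside 56.3% of all 11375 genes tested (25.1% higher and 31.2% lower). NSN oocytes had 6 genes called, 2 higher and 4 lower, again beside 56.3% of all genes (25.5% higher and 30.8% lower). The members were thus called about as often as other genes, and what follows describes how far and in which direction each one moved. The median log2 fold change over the 10 genes was 0.17 in SN and 0.084 in NSN oocytes, beside −0.077 and −0.12 over all genes. With scaling by total counts alone, the median of all genes shifted by −0.30 (SN) and −0.29 (NSN), and the share of higher genes among all calls went from 44.6% to 33.5% and from 45.2% to 35.7%. In limma on log2(FPKM + 1) the median shifted by −0.15 and −0.13, and without a filter the share of higher genes was 33.7% and 36.0%. Values below are read shares (CPM) scaled with TMM factors, and tests are quasi-likelihood tests in edgeR, with p-values adjusted after Benjamini and Hochberg over all genes and genes called at an adjusted p under 0.05.

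Zar1l had the greatest change of the 10 genes. Its CPM was 243, 189 and 219 in SN GV oocytes and 156, 269 and 197 in NSN GV oocytes. SN-MII oocytes had 8.09, 7.83, 11.4 and 6.54 CPM and NSN-MII oocytes 9.75, 7.05 and 7.76 CPM. Each MII library was more than an order of magnitude below each GV library, and the MII values rest on 46 to 87 counts per library. The fall was 25.5-fold in SN oocytes (log2 fold change −4.67, SE 0.26, adjusted p = 1.31e-09 by edgeR) and 25.2-fold in NSN oocytes (−4.66, SE 0.29, adjusted p = 7.82e-09). Only 362 of the 11375 genes had a lower log2 fold change in SN oocytes, and 378 in NSN oocytes. The annotation places Zar1l on chromosome 5 from 150507055 to 150518164, on the minus strand, with the processed pseudogene Gm15933 inside its span, and its counts were whole numbers in every library.

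Its relative Zar1, on chromosome 5 from 72576806 to 72581254, moved much less. The CPM was 751, 818 and 952 in SN GV and 489, 632, 777 and 675 in SN-MII oocytes. These groups overlapped, and the log2 fold change of −0.38 (SE 0.28, 95% interval −0.97 to 0.20) was not called (adjusted p = 0.248 by edgeR). In NSN oocytes the CPM went from 1039, 1029.7 and 906 at GV to 746, 722 and 260.0 at MII, with no overlap. This fall of 1.72-fold passed the test (−0.78, SE 0.30, adjusted p = 0.0341 by edgeR). It lost its call without the third NSN-MII library, which had 260.0 CPM (−0.46, adjusted p = 0.0727 by edgeR), and without the first or second NSN GV library (adjusted p = 0.0760 and 0.0659). Counts of Zar1 were not whole in most libraries, that is, some of its reads were shared with other genes.

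Ybx2, which encodes the mRNA-coating Y-box protein (chromosome 11, 69935796 to 69941605), was at 26.5, 19.9 and 14.8 CPM in SN GV and 16.7, 25.5 and 22.9 CPM in NSN GV oocytes. At MII it had 3.58, 5.90, 3.81 and 3.13 CPM in SN and 8.68, 4.82 and 2.87 CPM in NSN oocytes. No MII library reached the lowest GV library in either type, although the MII values stand on only 17 to 73 counts. The fall was 4.95-fold in SN oocytes (log2 fold change −2.31, SE 0.39, adjusted p = 0.000103 by edgeR) and 3.93-fold in NSN oocytes (−1.97, SE 0.42, adjusted p = 0.000809).

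Patl2, which encodes an oocyte-enriched Pat1 protein, fell to a like extent. SN GV oocytes had 55.7, 72.8 and 114 CPM and SN-MII oocytes 24.4, 15.9, 19.6 and 14.6 CPM. NSN GV oocytes had 180.5, 133 and 73.2 CPM and NSN-MII oocytes 38.8, 44.4 and 15.9 CPM. The stages did not overlap in either type, but the NSN libraries were widely spread within each stage. The fall was 4.33-fold in SN oocytes (log2 fold change −2.11, SE 0.37, adjusted p = 0.00013 by edgeR) and 3.89-fold in NSN oocytes (−1.96, SE 0.40, adjusted p = 0.000532). The Patl2 gene (chromosome 2, 122120108 to 122186189, minus strand) overlaps B2m and Trim69 on the other strand, and as no strand-specific step is named in the sources used here, reads of overlapping exons could not be told apart.

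Against these, both LSM14 genes rose. Lsm14a (chromosome 7, 34344646 to 34393315) was at 110.1, 117 and 100.1 CPM in SN GV oocytes and 85.0, 79.4 and 121 CPM in NSN GV oocytes. At MII it reached 276, 299, 317 and 415 CPM in SN and 293, 329 and 448 CPM in NSN oocytes. All 7 MII libraries were above all 6 GV libraries. The rise was 2.99-fold in SN oocytes (log2 fold change 1.58, SE 0.22, adjusted p = 1.94e-05 by edgeR) and 3.75-fold in NSN oocytes (1.91, SE 0.24, adjusted p = 5.72e-06), and 563 and 370 of 11375 genes had a higher log2 fold change. Lsm14a had some counts that were not whole. It overlaps 4 other annotated genes, with Gm44567 on the same strand and Gm12774, Gm12764 (antisense) and 2310043P16Rik on the other.

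Lsm14b (chromosome 2, 180024987 to 180035465) was the lower of the pair in FPKM in all 4 groups. Its CPM was 27.8, 29.7 and 25.2 in SN GV and 64.0, 55.7, 40.6 and 39.9 in SN-MII oocytes, and 15.9, 19.1 and 26.5 in NSN GV and 80.2, 52.2 and 81.2 in NSN-MII oocytes. The stages did not overlap in either type. The rise was 1.82-fold in SN oocytes (log2 fold change 0.86, SE 0.26, adjusted p = 0.0109 by edgeR) and 3.47-fold in NSN oocytes (1.80, SE 0.29, adjusted p = 6.36e-05). The call in SN oocytes was lost when libraries were scaled by total counts alone (0.57, adjusted p = 0.0719 by edgeR) and in limma on log2(FPKM + 1), where the log2 change was 0.28 (adjusted p = 0.352).

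**Figure D2:**
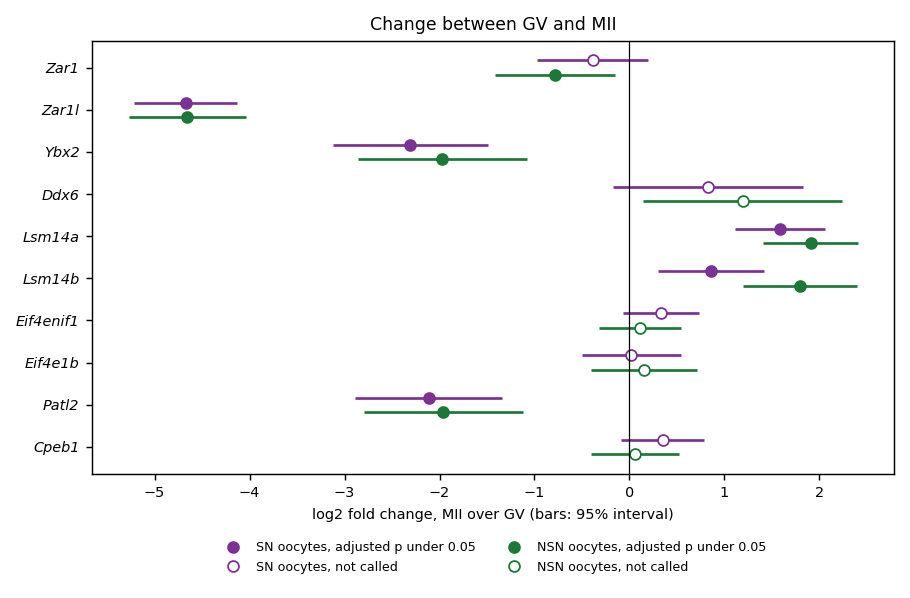
Log2 fold change of each gene between GV and MII (MII over GV) in SN (purple) and NSN (green) oocytes. Bars are approximate 95% intervals from the edgeR fit, and filled points have an adjusted p under 0.05. Zar1l stands apart at −4.67 and −4.66, and the 2 types lie farthest from each other for Lsm14b, at 0.86 in SN and 1.80 in NSN oocytes.

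The other 4 genes were not called by edgeR in either type, although DESeq2 called Ddx6 in NSN oocytes (adjusted p = 0.0418). Ddx6 (chromosome 9, 44604892 to 44640731) was at 6.37, 6.26 and 8.61 CPM in SN GV and 19.8, 11.3, 12.2 and 7.08 CPM in SN-MII oocytes. In NSN oocytes it had 13.03, 8.99 and 5.18 CPM at GV and 34.5, 19.5 and 8.10 CPM at MII. The stages overlapped in both types. The log2 fold change was 0.83 in SN (SE 0.47, adjusted p = 0.148 by edgeR) and 1.19 in NSN oocytes (SE 0.50, adjusted p = 0.0502), the latter just short of the threshold. Without the third NSN-MII library it was 1.53 and was called (adjusted p = 0.0121 by edgeR), and without the first NSN GV library 1.55 (adjusted p = 0.0331). Ddx6 was measured with 41 to 290 counts per library. It overlaps 3 other annotated genes, with E030022I16Rik and Gm47234 on the same strand and the processed pseudogene Gm30671 on the other.

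Eif4enif1 (chromosome 11, 3202392 to 3244588), which encodes the eIF4E transporter, had 786, 969 and 782 CPM in SN GV and 1150.4, 1072, 1028 and 1004 CPM in SN-MII oocytes. These did not overlap, yet the log2 fold change of 0.33 (SE 0.19, 95% interval −0.072 to 0.73) was not called (adjusted p = 0.150 by edgeR). In NSN oocytes its CPM of 842, 752 and 1028 at GV and 781, 833 and 1216 at MII overlapped (0.11, 95% interval −0.32 to 0.54). The gene overlaps Drg1 on the other strand.

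Cpeb1 (chromosome 7, 81347026 to 81455465) behaved alike in its values: 1249, 1478 and 1113 CPM in SN GV and 1636, 1521, 1521 and 1847 CPM in SN-MII oocytes. These groups were apart too, with a log2 fold change of 0.35 (SE 0.21, 95% interval −0.084 to 0.78, adjusted p = 0.159 by edgeR). In NSN oocytes the CPM was 958, 1129.7 and 1516 at GV and 1062, 1077 and 1616 at MII. The log2 difference was 0.059 (95% interval −0.40 to 0.52). Cpeb1 overlaps the processed pseudogene Rpl7a-ps9 on the other strand. When only the 2 SN groups were fitted, Eif4enif1 (adjusted p = 0.030) and Cpeb1 (adjusted p = 0.0289) passed the threshold in edgeR, at log2 fold changes of 0.34 and 0.36.

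Eif4e1b (chromosome 13, 54783998 to 54788459), which encodes the cap-binding protein, showed the smallest difference in SN oocytes. It had 294, 306 and 226 CPM in SN GV, 336, 346, 249.6 and 184 CPM in SN-MII, 222, 179 and 283 CPM in NSN GV and 281, 293 and 186 CPM in NSN-MII oocytes. All groups overlapped. The log2 fold change was 0.018 in SN (95% interval −0.50 to 0.54) and 0.15 in NSN oocytes (95% interval −0.40 to 0.71). Counting genes by overlap instead of by the test, the stages were apart for 7 of the 10 genes in SN oocytes, beside 63.4% of all genes, and for 6 in NSN oocytes, beside 60.9%. As the libraries were primed on poly(A) tails, an mRNA that is less abundant and one with a shorter tail cannot be told apart. CPM values are shares of each library, so a change in the total mRNA of an oocyte is not seen. The proteins encoded by these genes were not measured.

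The second comparison asked whether the storage genes differ between NSN and SN oocytes at GV. None of the 10 genes was called by edgeR after Benjamini-Hochberg adjustment, and none had an unadjusted p under 0.05, beside 0% of 10839 genes called and 190 (1.75%) with an unadjusted p under 0.05. DESeq2 called 0 genes as well, with 233 at an unadjusted p under 0.05. The NSN and SN libraries overlapped for each of the 10 genes, beside 6.04% of all genes whose libraries did not. Patl2 had the widest difference, with 180.5, 133 and 73.2 CPM in NSN against 55.7, 72.8 and 114 CPM in SN GV oocytes (log2 fold change 0.71, SE 0.39, 95% interval −0.18 to 1.59). Lsm14b was at −0.42 (95% interval −0.9998 to 0.17), Ddx6 at 0.39 (−0.62 to 1.41) and Zar1 at 0.26 (−0.12 to 0.64). The narrowest intervals were those of Zar1 and Eif4enif1 (−0.31 to 0.45). Those of Patl2 and Ddx6 leave room for a level more than 2-fold higher in NSN oocytes, and that of Lsm14b for one almost 2-fold lower.

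At MII, the third comparison, none of the 10 genes was called either by edgeR or by DESeq2. Over all genes 26 of 10028 (0.259%) were called by edgeR and 217 by DESeq2. At an unadjusted p under 0.05 edgeR had 2 of the 10 genes, Patl2 and Cpeb1, beside 9.38% of all genes. DESeq2 had 1 of the 10 genes at this threshold, beside 1056 of all 10028 genes. Patl2 had 38.8, 44.4 and 15.9 CPM in NSN-MII against 24.4, 15.9, 19.6 and 14.6 CPM in SN-MII oocytes, with the first and second NSN-MII libraries above all SN-MII libraries and the third among them. Its log2 fold change was 0.84 (SE 0.35, 95% interval 0.072 to 1.60), with an adjusted p of 0.463 in edgeR. Cpeb1 had 1062, 1077 and 1616 CPM against 1636, 1521, 1521 and 1847 CPM, again with the first and second NSN-MII libraries outside the SN-MII range and the third inside it (−0.39, SE 0.17, adjusted p = 0.484 by edgeR). The other 8 genes had log2 differences between −0.18 for Eif4enif1 and 0.73 for Ddx6.

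Leaving out 1 MII library at a time gave a log2 fold change of 0.56 to 1.17 for Patl2 and −0.60 to −0.29 for Cpeb1. Calls of these genes appeared only without the third NSN-MII library. Without it, edgeR called both Patl2 (log2 fold change 1.17, adjusted p = 0.0388) and Cpeb1 (−0.60, adjusted p = 0.0304), and 233 genes in all. Zar1 then had a log2 difference of 0.20 in place of −0.15. This is also the library with the fewest genes detected, and the part of its quality in these values was not tested. Without each other MII library in turn, none of the 10 genes was called. All 10 genes had NSN-MII libraries that overlapped the SN-MII libraries, beside 10.2% of all genes whose libraries did not.

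**Figure D3:**
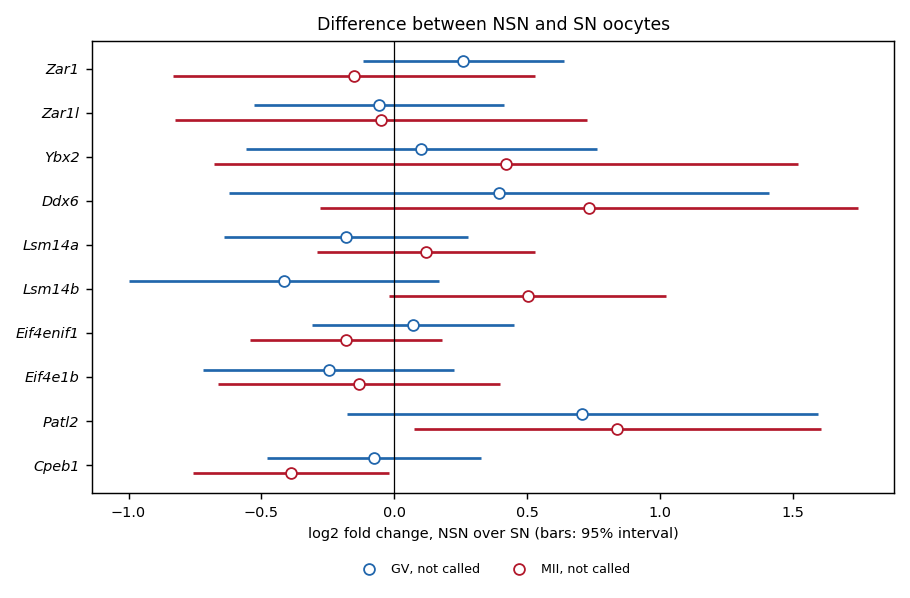
Log2 fold change between NSN and SN oocytes (NSN over SN) for each gene at GV (blue) and at MII (red). Bars are approximate 95% intervals from the edgeR fit. All points are open because no gene was called, and only the MII intervals of Patl2 (0.072 to 1.60) and Cpeb1 (−0.76 to −0.022) leave out 0.

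Whether the change between stages differed between the types was tested as an interaction in 1 model of all libraries. No storage gene was called by edgeR or DESeq2, beside 0.0176% (2) of 11375 genes by edgeR and 39 by DESeq2, and 1 storage gene had an unadjusted p under 0.05, beside 5.33% of all genes. That gene was Lsm14b, whose rise was 0.94 greater on the log2 scale in NSN than in SN oocytes (SE 0.38, 95% interval 0.13 to 1.74, adjusted p = 0.831 by edgeR). The difference for Zar1, called in NSN oocytes alone, was −0.40 (SE 0.41, 95% interval −1.26 to 0.46, adjusted p = 0.9997 by edgeR), so its fall was not shown to differ between the types. Zar1l moved almost equally in both, with a difference of 0.016 (95% interval −0.73 to 0.77).

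Proteins that share these particles or belong to the same families were taken as a list of 34 partner genes. This list was made with earlier results of these data known, so its counts beside all genes are a description without a test. Of the 34 genes, 33 passed the filter on low counts. In SN oocytes 14 of them were higher at MII, 6 were lower and 13 were not called, beside 56.3% of all genes called (25.1% higher and 31.2% lower). In NSN oocytes 15 were higher, 2 were lower and 16 were not called, also beside 56.3% (25.5% higher and 30.8% lower). The median log2 fold change of the partners was 0.60 in SN and 0.50 in NSN oocytes, beside −0.077 and −0.12 for all genes. Between NSN and SN oocytes none of the partners was called by edgeR or DESeq2. At GV 0 of 32 tested had an unadjusted p under 0.05 in edgeR, beside 1.75% of all genes, and at MII 2 of 30, beside 9.38%. In the interaction of type and stage no partner was called by either tool, and 1 of 33 had an unadjusted p under 0.05 in edgeR, beside 5.33% of all genes.

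Igf2bp3, which encodes an mRNA-binding protein of the IGF2BP family, had 164, 193 and 160.2 CPM in SN GV oocytes. In SN-MII oocytes it had 699, 646, 567 and 719 CPM (log2 fold change 1.93, SE 0.18, adjusted p = 2.56e-07 by edgeR). It was also called higher in NSN oocytes (1.78, adjusted p = 1.20e-06 by edgeR). Cpeb4, a relative of Cpeb1 that takes part in later polyadenylation, had 16.7, 28.2 and 9.21 CPM in SN GV and 63.2, 71.2, 62.9 and 60.1 CPM in SN-MII oocytes (1.83, adjusted p = 0.00201 by edgeR). In NSN oocytes Cpeb4 went from 11.1, 2.75 and 16.6 CPM to 61.9, 54.5 and 54.5 CPM (2.49, adjusted p = 0.000304 by edgeR). So Cpeb4 rose in both types where Cpeb1 itself was not called. Pum2, which encodes a Pumilio repressor, had 66.9, 47.7 and 64.9 CPM in NSN GV oocytes. In NSN-MII oocytes it had 173, 202 and 249.7 CPM (1.80, adjusted p = 3.69e-06 by edgeR). It was also called higher in SN oocytes (1.53, adjusted p = 9.70e-06 by edgeR).

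Among partners, the steepest fall with a measurable level in SN oocytes was that of Eif4e2, which encodes a cap-binding relative of EIF4E that represses translation. It had 37.0, 37.0 and 40.6 CPM in SN GV and 1.99, 1.93, 3.68 and 0.954 CPM in SN-MII oocytes (log2 fold change −4.15, adjusted p = 1.33e-07 by edgeR), and went from 40.2, 45.3 and 33.1 to 3.21, 5.19 and 2.53 CPM in NSN oocytes (−3.42). Fxr2, an FMRP relative, went from 15.7, 13.5 and 15.3 CPM in NSN GV to 1.90, 0.865 and 0.506 CPM in NSN-MII oocytes (−3.71, adjusted p = 5.01e-05 by edgeR). It was also called lower in SN oocytes (−2.76, adjusted p = 0.000173 by edgeR). Edc3, a decapping enhancer, was rare throughout, with 7 to 28 counts in SN GV and at most 1 count in SN-MII libraries, so that its level was at least 4.56-fold lower in SN-MII oocytes when 3 counts per library are taken as the floor.

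**Figure D4:**
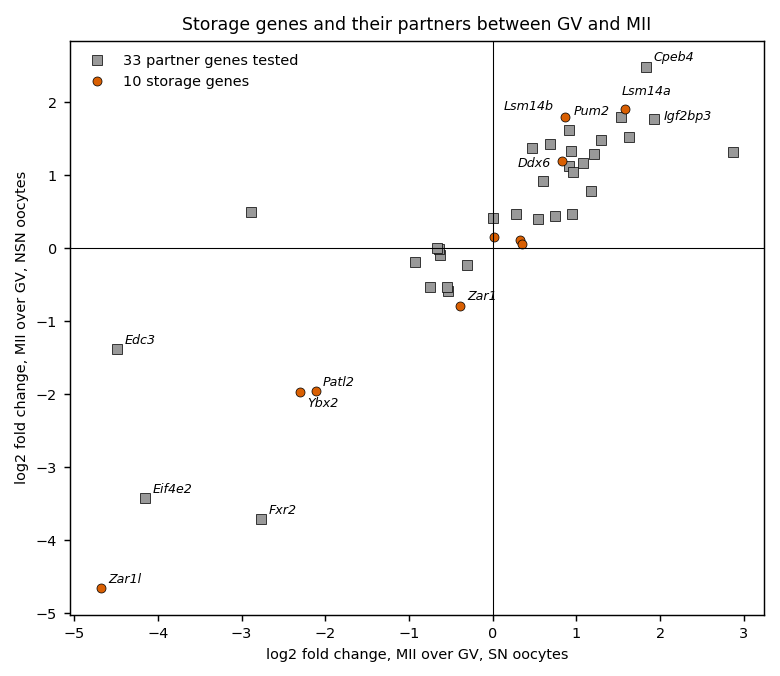
Log2 fold change between GV and MII in SN oocytes (x axis) against that in NSN oocytes (y axis) for the 10 storage genes (circles) and 33 partner genes (squares), from the same edgeR model. Zar1l, Eif4e2 and Fxr2 lie at the lower left and Cpeb4, Igf2bp3, Pum2 and Lsm14a at the upper right, and the fitted position of Edc3 in SN oocytes rests on at most 1 count per MII library.

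Within groups the oocytes also differed from each other. After the group mean was taken from log2(CPM + 1), Zar1, Ddx6 and Patl2 tended to deviate together and Lsm14a, Eif4enif1 and Cpeb1 the other way, which was clearest in the NSN libraries. In SN-MII oocytes Zar1 did not follow, as its lowest library, the first, was the highest for Ddx6 and Patl2. Eif4enif1 did not go the other way there. Like Ddx6 and Patl2, it was highest in the first SN-MII library (0.11) and lowest in the fourth (−0.081). The first NSN GV library had 180.5 CPM of Patl2 and 13.03 of Ddx6 with 958 of Cpeb1, while the third NSN GV library had 73.2, 5.18 and 1516. These 2 sets were picked after the values were seen, and the correlations are given as a description without a test. Pearson's r over the 13 libraries was between 0.57 and 0.86 within the sets (6 pairs) and between −0.91 and −0.49 across them (9 pairs), with the extreme for Ddx6 and Lsm14a. The libraries share the scaling, and the third NSN-MII library is extreme for several genes. Without it (12 libraries) the range was −0.11 to 0.78 within and −0.87 to 0.023 across the sets. Ddx6 and Lsm14a kept an r of −0.87, Ddx6 and Patl2 0.75, and Lsm14a and Cpeb1 0.78, whereas Zar1 and Ddx6 went from 0.57 to −0.11.

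Library measures moved with these deviations as well. The share of counts in the 10 most abundant genes had an r of −0.84 with Ddx6, −0.60 with Patl2 and −0.62 with Zar1. In the other set this r was 0.67 with Lsm14a, 0.60 with Cpeb1 and 0.46 with Eif4enif1. Outside the 2 sets it was −0.77 with Eif4e1b, −0.62 with Ybx2, −0.15 with Lsm14b and −0.12 with Zar1l. The number of genes with a count had an r of 0.83 with Eif4e1b. In the first set it was 0.62 with Ddx6, 0.61 with Zar1 and 0.48 with Patl2. In the other set it was −0.55 with Cpeb1, −0.47 with Lsm14a and −0.29 with Eif4enif1. Total counts had an r of 0.67 with Zar1 and between −0.35 and 0.33 with the other genes. Zar1l, whose stage change was the greatest, had none beyond −0.33 with any of the 3 library measures. The part of library composition in the deviations was not tested.

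**Figure D5:**
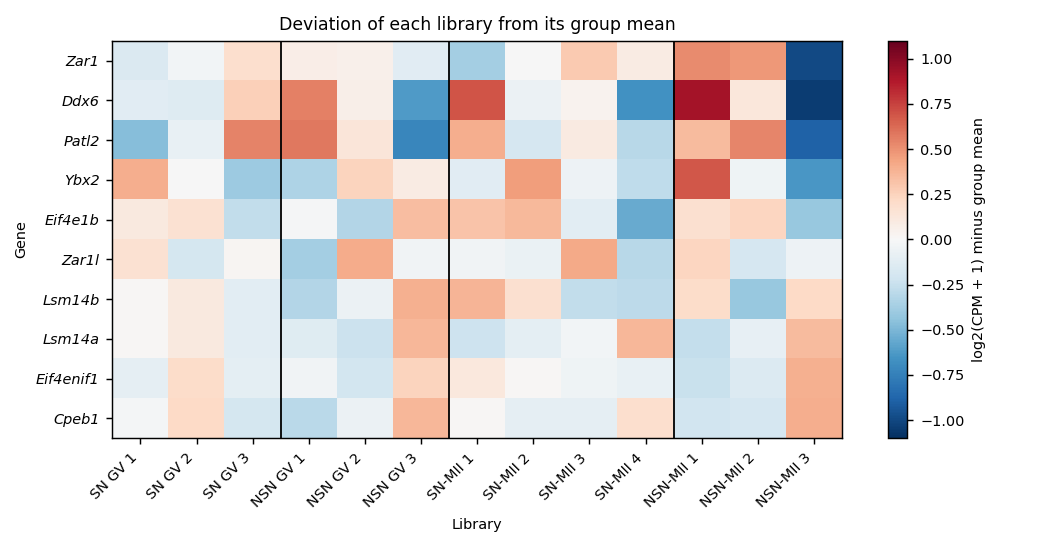
Deviation of log2(CPM + 1) from the group mean for the 10 storage genes (rows) in the 13 libraries (columns, separated by group), with red for values above and blue for values below the mean. Zar1, Ddx6 and Patl2 share colours across the NSN GV and NSN-MII libraries, Lsm14a, Eif4enif1 and Cpeb1 have the opposite ones, and the third NSN-MII library has the deepest colours.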

How the data were processed

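Single oocytes were amplified by SMART-seq2, which starts reverse transcription at poly(A) tails and uses PCR. No molecular identifiers are named, so replicate oocytes, not counts, give the error. The authors trimmed reads (Trim Galore 0.4.4), mapped them to mm10 (Bowtie2 2.3.5) and deposited estimated counts (RSEM 1.2.28, 1 table per stage) and FPKM values of RefSeq genes. Here, 11.0% to 16.6% of the deposited expected counts per library were not whole. No column was left unused.

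Counts were rounded, filtered (filterByExpr), scaled (TMM) and tested with the quasi-likelihood test of edgeR 4.0.16 in R 4.3.3, with Benjamini-Hochberg adjustment over all genes. NSN and SN were fitted within each stage, and the stages and the interaction in 1 model of group means over all libraries. The edgeR steps were tested on simulated data. No library was a copy of another of its group. DESeq2 1.42.0 and limma 3.58.1 on log2(FPKM + 1), other scalings and filters, a replicate block and leaving out libraries served as alternatives.

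Members, partners and markers were chosen with earlier results of these data known. Partners were counted by direction, and the 2 greatest rises and falls called per type were named. Sequences and coordinates came from GENCODE M21 (10 of 10 symbols matched). Reads, imaging and maturation rates were not analysed here.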

Additional observations from a re-analysis of the deposited data

How the results depend on the processing

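Over 830 refits of single storage genes, 751 kept direction and side of the threshold. The 11 calls between stages gave 160 of 170 refits with the same call, 10 without it and 0 with the opposite sign. Calls of Zar1l, Ybx2, Patl2 and Lsm14a, and of Lsm14b in NSN oocytes, held in all of them. Beyond the losses given above, Zar1 in NSN oocytes was not called with a replicate block (−0.81, adjusted p = 0.0543), with only its 2 groups fitted (−0.79, adjusted p = 0.0989) or in limma without a filter (−1.08, adjusted p = 0.0705). The cause was not tested. Counts were lowest for Ddx6 at GV and for Ybx2 and Zar1l at MII.

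The deviations of same-numbered oocytes had an r between −0.46 and 0.20, and those of differently numbered oocytes between −0.22 and 0.40. As each group mean rests on few oocytes, these values cannot decide whether the numbers pair the oocytes. The replicate block left 5 (SN) and 6 (NSN) storage genes called between stages, lost Zar1 and gained Ddx6 (1.13, adjusted p = 0.0425), and turned the interaction to −0.083 for Zar1l and −0.057 for Eif4e1b. Ddx6 in NSN oocytes also passed in DESeq2 (adjusted p = 0.0418) and without a filter (adjusted p = 0.045).

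Signs turned only for differences that were not called. Between stages in SN oocytes, Eif4e1b had −0.038 with DESeq2 and with its size factors, −0.26 with total counts and −0.088 to −0.089 in limma. In NSN oocytes, total counts gave −0.21 (Eif4enif1), −0.11 (Eif4e1b) and −0.25 (Cpeb1), and limma −0.065, −0.057 and −0.072 to −0.073. In limma Ybx2 at GV was at −0.065 and Zar1l at MII at 0.0045 to 0.0057.

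Leaving out 1 library at a time turned signs between stages for Cpeb1 (−0.19 to 0.27) and Eif4enif1 (−0.14 to 0.25) in NSN and Eif4e1b (−0.11 to 0.17) in SN oocytes. At GV it did so for Cpeb1 (−0.26 to 0.018), Ddx6 (−0.041 to 0.69), Eif4enif1 (−0.037 to 0.18), Ybx2 (−0.068 to 0.33) and Zar1l (−0.26 to 0.068). At MII it did so for Eif4e1b (−0.29 to 0.052), Lsm14a (−0.061 to 0.25), Ybx2 (−0.091 to 0.72), Zar1 (−0.38 to 0.20) and Zar1l (−0.21 to 0.13), and in the interaction for Ddx6 (−0.25 to 0.73), Eif4e1b (−0.020 to 0.33), Patl2 (−0.17 to 0.48), Ybx2 (−0.20 to 0.61) and Zar1l (−0.16 to 0.25).

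Over all genes at GV, limma called 1, and 167 passed an unadjusted p of 0.05 with a 1.5-fold minimum. At MII the 26 calls became 217 with DESeq2, 16 with total counts, 89 without a filter, 2 with the replicate block, 4 in limma (2 without a filter), 69 with all libraries in 1 fit, 719 by unadjusted p and 1.5-fold (1 storage gene) and 2 to 233 without 1 library (0 to 2 storage genes). The 2 interaction calls became 39 with DESeq2, 6 without a filter, 1 in limma (4 without a filter), 600 by unadjusted p and 1.5-fold (1 storage gene) and 0 to 12 without 1 library.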
